A study of Mus musculus with 16 samples.

Results

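The liver transcriptome was examined here for 8 genes among the 15544 in the deposited table: the ribosomal protein gene Rps7, its processed pseudogene Rps7-ps3, and Zfp125, Rrm2, Adi1, Cys1, Asap2 and Cpsf3, which lie near Rps7 on mouse chromosome 12. The genes were picked by symbol, as candidates for a segment of chromosome from another strain that could have been carried with the Cre allele, after their values in mutants and controls were known. Genotype differences of these 8 genes are therefore given as a description, with no test. Each symbol matched 1 row of the table.

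Bulk RNA sequencing was done on liver RNA of females aged 27 weeks. Controls were Esr1fl/fl mice, homozygous for a floxed allele of Esr1, which encodes oestrogen receptor alpha, and mutants were Esr1Nkx2-1Cre mice, which carried the same floxed allele and a Cre recombinase driven by Nkx2-1, a gene of the hypothalamus, thyroid and lung rather than of the liver. Both genotypes were kept on chow or were fed a high-fat diet (HFD) for 17 weeks, which gave 4 groups of 4 libraries. The floxed allele came from a 129P2 background and the colony was kept on a mixed CD-1;129P2 background, so that mice could differ at loci other than the 2 alleles under study. The position of the Cre allele is not given in the sources used here, and the labels do not say that each library is a separate mouse, so p-values measure only the spread between these libraries. Values are TPM, an estimate of abundance adjusted for transcript length, with a further scaling between libraries, and column totals ran from 905897 to 1119703. The scale keeps no read depth. Of 10 hepatocyte markers, 9 were in the table, and their summed value ran from 86192 to 131436 over the 16 libraries. In bulk tissue, fewer cells of a type and less RNA per cell cannot be told apart.

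Rps7 encodes a protein of the small (40S) ribosomal subunit, which takes part in the processing of ribosomal RNA and, when free of the ribosome, binds MDM2, the ubiquitin ligase that holds p53 down. Ribosomal protein mRNAs are abundant in every cell, and many have been copied back into the genome by reverse transcription. The copies lack introns and are called processed pseudogenes, and most are not translated. Where such a copy remains close to its parent in sequence, short reads from one can be assigned to the other.

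Rps7 lies at chr12:28630854-28635953 on the minus strand of GRCm38 (mm10), and its main transcript has 7 exons and 954 bases, of which bases 108 to 692 encode a protein of 194 residues. Rps7-ps3, named Gm6472 in GENCODE release M21, is annotated as a transcribed processed pseudogene at chrX:152909505-152910155 on the minus strand. Its 651 bases aligned without a gap to bases 73 to 723 of that transcript, so that the copy spans the whole coding sequence. The 2 sequences were 99.4% identical, with 4 mismatches. Counted from 1 at the 5′ end of the Rps7 transcript, with the base of Rps7 first, these were G86A in the 5′ untranslated part of exon 1, T133G and G155A in exon 2, and G230T in exon 3. In the reading frame of Rps7, T133G would change the protein (V9G), and G155A and G230T are synonymous. The 3 coding mismatches are shown because they are the bases by which a read from the coding sequence could be assigned to one gene or the other. Each pair is read 5′ to 3′ along the transcript from GENCODE, with the differing base in capitals.
Rps7 around T133G: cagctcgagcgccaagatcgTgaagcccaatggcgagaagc
Rps7-ps3 around T133G: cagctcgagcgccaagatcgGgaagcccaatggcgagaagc
Rps7 around G155A: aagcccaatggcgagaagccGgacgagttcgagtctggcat
Rps7-ps3 around G155A: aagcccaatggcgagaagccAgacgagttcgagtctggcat
Rps7 around G230T: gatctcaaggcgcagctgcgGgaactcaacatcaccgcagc
Rps7-ps3 around G230T: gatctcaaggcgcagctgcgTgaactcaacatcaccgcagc

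The authors' quantifier, kallisto, assigns reads by short words of sequence, by default of 31 bases, and splits reads that fit several transcripts by estimation. Of the 621 such words in Rps7-ps3, 523 (84.2%) also occurred in a transcript of Rps7, and 98 did not. Of the 924 words in the main Rps7 transcript, 401 were absent from Rps7-ps3, and 303 of these lay outside the aligned stretch. Both genes thus had words of their own, but most of the copy's sequence could not be assigned by itself. The other genes of the list shared less with other genes, from 0% of words for Cys1 to 20.9% for Asap2, except Zfp125, for which 49.4% of words occurred elsewhere. Further Rps7-like pseudogenes in the annotation, among them Gm9493, were not analysed here. Values of Rps7, Rps7-ps3 and Zfp125 are therefore uncertain.

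Rps7 was far higher in mutants than in controls on both diets. Its value in the 4 controls on chow was 15.5, 19.3, 18.5 and 19.7, and in the 4 mutants on chow 164, 210, 169 and 143. On HFD the controls had 20.3, 19.5, 24.8 and 34.3, and the mutants 206, 187, 161 and 152. All 8 mutants lay above all 8 controls, with 143 in the lowest mutant and 34.3 in the highest control. Group means ± SD (n = 4) were 18.3 ± 1.92 and 171 ± 28.1 on chow and 24.7 ± 6.81 and 177 ± 24.8 on HFD. The mean in mutants was 9.38 times that in controls on chow and 7.14 times on HFD. On the log2(value + 1) scale the difference was 3.15 (SE 0.169) on chow and 2.81 (SE 0.169) on HFD. In order of their means, the groups were controls on chow, controls on HFD, mutants on chow and mutants on HFD, and neighbours of the same genotype overlapped. Across all 12704 genes that passed a filter (at least 4 libraries at 1 or above), 9 (0.0708%) had no overlap between the 8 mutants and the 8 controls. Rps7, Rps7-ps3 and Zfp125, which were chosen on their genotype values, were 3 of them, and the other 6 were Crybg2, Gna13, Paics, Sult1e1, Pank2 and Mrps6, none of them on chromosome 12.

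Rps7-ps3 differed in the opposite direction. Controls on chow had 308.7, 335.0, 321.0 and 334.0, and mutants on chow 187.3, 245.7, 175.9 and 168.1. On HFD the values were 460.4, 425.7, 422.6 and 339.1 in controls and 229.8, 195.3, 180.6 and 157.5 in mutants. No mutant reached the lowest control, 308.7. Group means were 324.7 ± 12.4 in controls and 194.2 ± 35.2 in mutants on chow, and 412.0 ± 51.5 and 190.8 ± 30.3 on HFD (SD, n = 4). Controls thus had 1.67 times the mutant mean on chow and 2.16 times on HFD, with log2 differences of -0.75 and -1.11 (SE 0.141 each). In controls the copy, rather than the parent gene, held nearly all of the signal assigned to the pair.

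The sum of Rps7 and Rps7-ps3 did not separate the genotypes. It was 324.2, 354.4, 339.5 and 353.8 in controls on chow and 351.0, 455.5, 344.9 and 310.7 in mutants on chow. On HFD it was 480.6, 445.2, 447.4 and 373.4 in controls and 436.2, 382.2, 341.7 and 309.3 in mutants. The ranges overlapped on each diet, with a ratio of mutant to control means of 1.07 on chow and 0.841 on HFD. What differed was the share of Rps7 in the sum, which was 4.22% to 9.18% in the 8 controls and 45.9% to 49.1% in the 8 mutants. In 3 groups the share varied little, and in controls on HFD it ran from 4.22% to 9.18%. The means were 5.32% ± 0.364 and 46.9% ± 1.44 on chow and of 5.83% ± 2.31 and 48.1% ± 1.03 on HFD (SD, n = 4). Replicate 4 of the controls on HFD had the 9.18%, together with the highest control value of Rps7. Since 84.2% of the copy's words occur in Rps7, the values of both genes depend on how reads of shared words were divided, which was not tested.

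**Figure D1:**
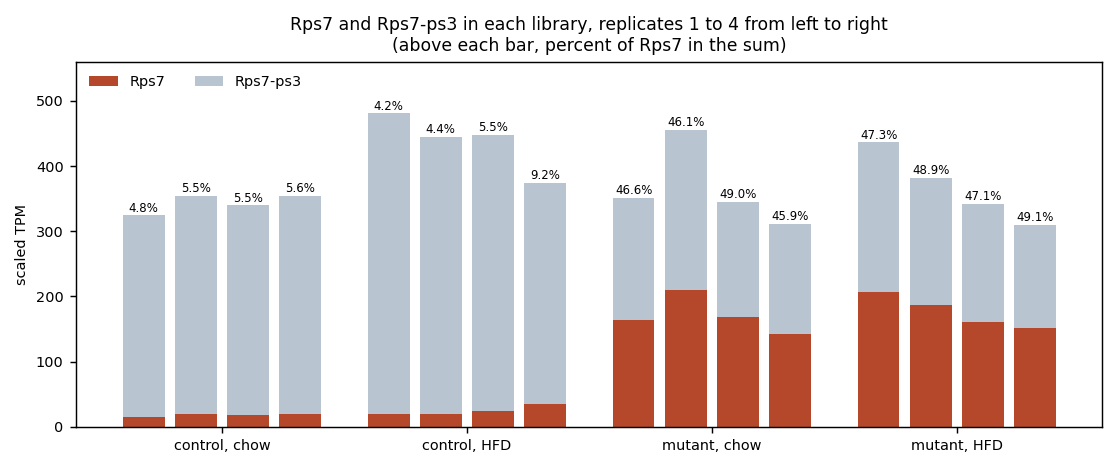
Stacked bars give Rps7 (red) and Rps7-ps3 (grey) in scaled TPM for each of the 16 libraries, in 4 groups of 4, with the percent of Rps7 in the sum printed above each bar. The height of the bars overlaps between genotypes, and the red part is 4.22% to 9.18% of the bar in controls and 45.9% to 49.1% in mutants.

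Other ribosomal protein genes gave a scale for these levels and differences. Among 32 other small subunit genes, the median over libraries ran from 3.31 (Rps2) to 1716 (Rps27), and the middle gene stood at 374.2. The median sum of Rps7 and Rps7-ps3, 354.1, lay near this middle, with 15 of the 32 genes below it. Rps7 alone, at a median of 19.6 in controls, was above only 2 of the 32, and at 166.4 in mutants above 5. The 32 small subunit genes had a median genotype difference (log2, mutant minus control, mean over both diets) of -0.12, and none of them was higher in mutants. Among the 47 large subunit genes the median was -0.13, and 3 were higher. Across all tested genes the median was 0.02. No gene of either list passed the limma test at an adjusted p of 0.05, against 8 of 12704 genes (0.063%), and 3 of the 79 genes passed at an unadjusted p of 0.05, against 8.98% of all genes. These were Rps2 (-0.36, adjusted p = 0.544), Rpl27 (-0.33, adjusted p = 0.492) and Rpl29 (1.32, adjusted p = 0.552). Rpl29 owed its difference to 2 libraries, replicates 2 and 3 of the mutants on HFD, with 179 and 194, whereas the other 14 libraries lay between 2.5 and 6.8. By diet, the medians of the small subunit list were 0.05 on chow and -0.32 on HFD, and the log2 difference of the summed pair (with no pseudocount) was 0.08 and -0.26.

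**Figure D2:**
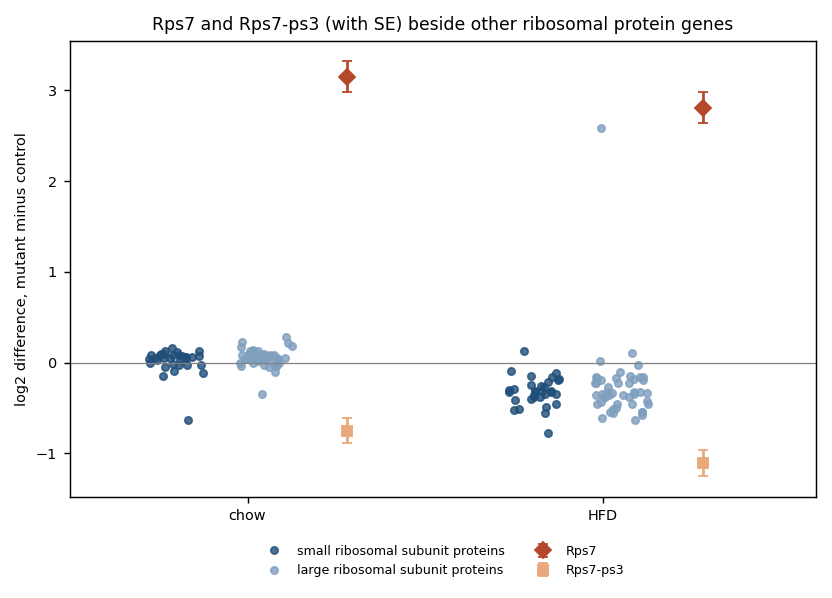
Each small point is the log2 difference, mutant minus control, of 1 ribosomal protein gene on chow (left) or HFD (right), for the small (dark blue) and large (light blue) subunit, with random horizontal spread, and Rps7 and Rps7-ps3 are drawn with their SE. Rps7 stands at 3.15 and 2.81 and Rps7-ps3 at -0.75 and -1.11, and the single light blue point high on HFD is Rpl29.

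Genes tied to ribosome assembly and to p53 were counted beside Rps7. Of 22 small subunit assembly factors, none passed at an unadjusted p of 0.05, and their median difference was -0.05. Tsr1, an assembly factor of the 40S subunit, had the smallest p (0.29, adjusted p = 0.554). Of 18 tested genes among p53 and its targets, 2 passed at an unadjusted p of 0.05, against 8.98% of all genes. Both were higher, and none passed after adjustment. The 2 genes were Mdm4, an inhibitor of p53 (0.44, limma adjusted p = 0.492), and Ccng1, a p53 target (0.22, limma adjusted p = 0.521). The median of the list was 0.07.

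Adi1 is the closest neighbour of Rps7 on the list. It starts 39.3 kb from the 5′ end of Rps7 and is read in the other direction. Towards lower coordinates, Cys1 and Rrm2 lie 3.97 and 3.92 Mb from Rps7 (start to start), and Zfp125, Asap2 and Cpsf3 lie 7.75, 7.64 and 7.35 Mb from it. Nkx2-1 is on the same chromosome, 27.9 Mb from Rps7 on the other side. The roles of these genes have little in common. Zfp125 is a zinc finger gene that the annotation used here lists as a pseudogene. Rrm2 encodes a subunit of ribonucleotide reductase, Adi1 an enzyme of the methionine salvage pathway, Cys1 the ciliary protein cystin, Asap2 a GTPase-activating protein for Arf GTPases, and Cpsf3 the endonuclease that cuts pre-mRNA before polyadenylation.

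Zfp125 lies at chr12:20877084-20921262 and is annotated in GENCODE M21 as a transcribed unprocessed pseudogene. It was barely measured in controls, with 0.086, 0.0275, 0.185 and 0.255 on chow and 0.147, 0.0615, 0.0633 and 0.167 on HFD. Mutants had 2.57, 2.02, 3.18 and 1.5 on chow and 0.627, 3.59, 1.41 and 2.29 on HFD. All mutants were above all controls, and replicate 1 of the mutants on HFD was the lowest mutant by a wide margin. The log2 difference was 1.52 on chow and 1.32 on HFD (SE 0.25 each), which depends on the pseudocount and became 3.40 and 3.11 with a pseudocount of 0.1. No control and 7 of 8 mutants reached a value of 1, so the gene passed the filter only through the mutants. A list of 12 genes of triglyceride and lipoprotein export was counted in the same contrast of genotypes. None passed after adjustment, 2 passed at an unadjusted p of 0.05 (1 higher and 1 lower), against 8.98% of all genes, and the median difference was -0.02. The smallest p among them belonged to Apoa4, an apolipoprotein (0.36, adjusted p = 0.513).

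Rrm2, at chr12:24708241-24714146, supplies deoxyribonucleotides for DNA synthesis and is used in dividing cells. Controls had 0.854, 0.754, 1.22 and 1.62 on chow and 0.733, 0.923, 0.883 and 0.772 on HFD. Mutants had 4.96, 6.44, 2.46 and 2.69 on chow and 0.874, 2.42, 2.2 and 2.52 on HFD. On HFD replicate 1 of the mutants, at 0.874, lay within the range of the controls. The log2 difference was 1.23 on chow and 0.68 on HFD (SE 0.25 each). Only 2 of 8 controls reached a value of 1, against 7 of 8 mutants, so this gene too passed the filter largely through the mutants.

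The 2 libraries with the most Rrm2, replicates 1 and 2 of the mutants on chow, also had by far the most neutrophil marker RNA. The summed value of 8 neutrophil markers was 3111 and 6695 in them, and 25.8 and 117 in the other mutants on chow. It was 2.01 to 11.1 in controls on chow, 6.35 to 22.6 in controls on HFD and 12.3 to 156 in mutants on HFD. All 8 markers were higher in mutants at an unadjusted p of 0.05, against 8.98% of all genes in either direction, and none passed after adjustment. Their median difference was 2.83, and no marker was at 0 throughout a group. Without these 2 libraries only 6 of the 8 passed the filter, so some were tested only because of high values in these mutants. The count is therefore given as a description. S100a8, a calcium-binding protein abundant in neutrophils, was 1079 and 2693 in the same 2 libraries, and between 0.726 and 55.5 in the other 14. Replicate 1 of the mutants on HFD, the mutant with the least Rrm2, also had the least neutrophil marker RNA of the mutants, 12.3. The same 2 libraries also had the highest summed macrophage and Kupffer cell markers, 814.4 and 962.4 against 201.5 to 673.7 elsewhere, and the highest summed lymphocyte markers, 20 and 21.6 against at most 17.1. Replicate 2 had the lowest summed hepatocyte markers, 86192.

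Genes of DNA synthesis and proliferation were counted beside Rrm2. Of 21 tested, 7 were higher at an unadjusted p of 0.05, against 8.98% of all genes in either direction. None was lower and none passed after adjustment, and the median was 0.34. Without the 2 libraries with the most neutrophil marker RNA only 18 of the 21 passed the filter. Some were thus tested only because of high values in these mutants, so the count is given as a description. Top2a, a topoisomerase of dividing cells, was 6.04 and 9.69 in the 2 libraries with the most neutrophil marker RNA and 1.06 to 3.46 elsewhere (0.81, adjusted p = 0.27). The replication factor Mcm5 (0.84, adjusted p = 0.306) and the mitotic kinase Cdk1 (0.80, adjusted p = 0.384) came next. Mcm5 was 4.23 and 5.51 in those 2 libraries, and its highest value, 5.71, was in replicate 4 of the mutants on HFD. The summed value of the list was 319.4 and 248.6 in the 2 libraries, both within the range of the 8 controls, 237.7 to 322.0. Top2a, Mcm5 and Cdk1 reached at most 9.69, 5.71 and 6.91, a small part of this sum, so the sum says little about genes of such low level.

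With those 2 libraries left out, a choice made after the data were seen, Rrm2 differed by 0.78 on chow instead of 1.23. The median of the proliferation list was 0.34 over 21 genes with all libraries and 0.05 over 18 genes without the 2. The filter was applied again, so these medians are of different sets of genes. Without the 2 libraries, Rps7 differed by 3.03, Rps7-ps3 by -0.91 and Zfp125 by 1.51 on chow, which was as large as or close to the values with all libraries. The part of neutrophil RNA in the difference of Rrm2 was not tested.

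**Figure D3:**
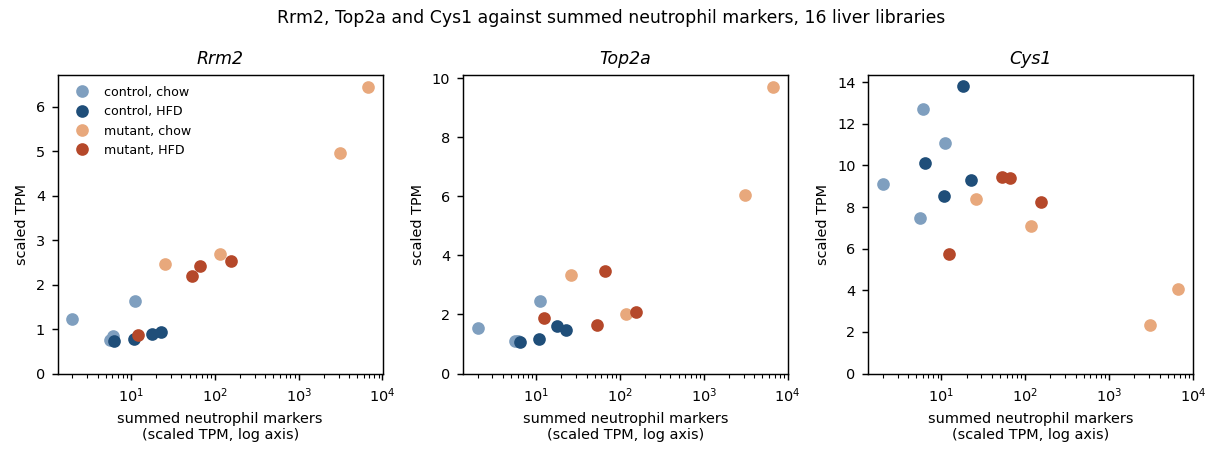
Each point is 1 of the 16 libraries, coloured by group, with the summed value of 8 neutrophil markers on a log axis and the value of Rrm2 (left), Top2a (middle) or Cys1 (right) in scaled TPM. Replicates 1 and 2 of the mutants on chow stand at 3111 and 6695 on the horizontal axis, with the 2 highest values of Rrm2 and Top2a and the 2 lowest of Cys1.

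Adi1, at chr12:28675231-28682175, was modestly higher in mutants. Controls had 88.1, 77.7, 87.7 and 89.3 on chow and 90.2, 103, 103 and 126 on HFD. Mutants had 98.1, 117, 134 and 117 on chow and 123, 125, 140 and 136 on HFD. On HFD 1 control, replicate 4, at 126, lay above 2 of the mutants. That library was also the control with the most Rps7. The log2 difference was 0.43 on chow and 0.32 on HFD (SE 0.116 each). In the rest of the methionine salvage and polyamine list, 0 of 14 genes passed at an unadjusted p of 0.05, with a median of -0.03. Odc1, the first enzyme of polyamine synthesis, had the smallest p (0.28, adjusted p = 0.608).

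Cys1, at chr12:24665833-24681813, was lower in mutants, and the groups overlapped. Controls had 12.7, 7.49, 9.09 and 11.1 on chow and 10.1, 9.32, 13.8 and 8.52 on HFD. Mutants had 2.34, 4.05, 8.4 and 7.1 on chow and 5.73, 9.39, 9.43 and 8.24 on HFD. The 2 lowest values, 2.34 and 4.05, came from the 2 libraries with the most neutrophil marker RNA, and without them the log2 difference on chow was -0.32 instead of -0.87 (SE 0.276). On HFD it was -0.32, and -0.17 without replicate 1 of the mutants. Of 15 cilium and cystic kidney genes, 1 passed at an unadjusted p of 0.05, against 8.98% of all genes, and the median was 0.04. The gene was Bicc1, an RNA-binding protein mutated in cystic kidneys of mice (0.25, limma adjusted p = 0.482).

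Asap2 and Cpsf3, which are 15.2 kb apart, overlapped between genotypes on both diets. Asap2, at chr12:20990459-21270171, had 3.46, 7.12, 2.39 and 1.4 in controls on chow and 6.4, 5.43, 2.95 and 2.82 in mutants on chow. On HFD it had 2.21, 0.876, 0.952 and 1.71 in controls and 2.72, 2.76, 2.47 and 1.89 in mutants. The log2 differences of 0.32 and 0.53 were under 2 times their SE of 0.319. The difference on chow was 0.06 without replicate 4 of the controls and 0.65 without replicate 2 of the controls. Without the 2 libraries named above, it was -0.09. Cpsf3, at chr12:21285391-21315056, varied little. It had 24.9 to 28.2 in controls and 20.9 to 25.3 in mutants on chow, and 25.3 to 32.9 and 22.6 to 26.6 on HFD, with log2 differences of -0.15 and -0.23 (SE 0.104 each). Among 18 genes of mRNA 3′ end processing, 0 passed at an unadjusted p of 0.05 and the median was 0.04. Among 20 Arf GTPases and Arf GAPs, 1 did, the Arf GAP Acap3 (0.35, limma adjusted p = 0.544), against 8.98% of all genes, and the median was 0.04.

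**Figure D4:**
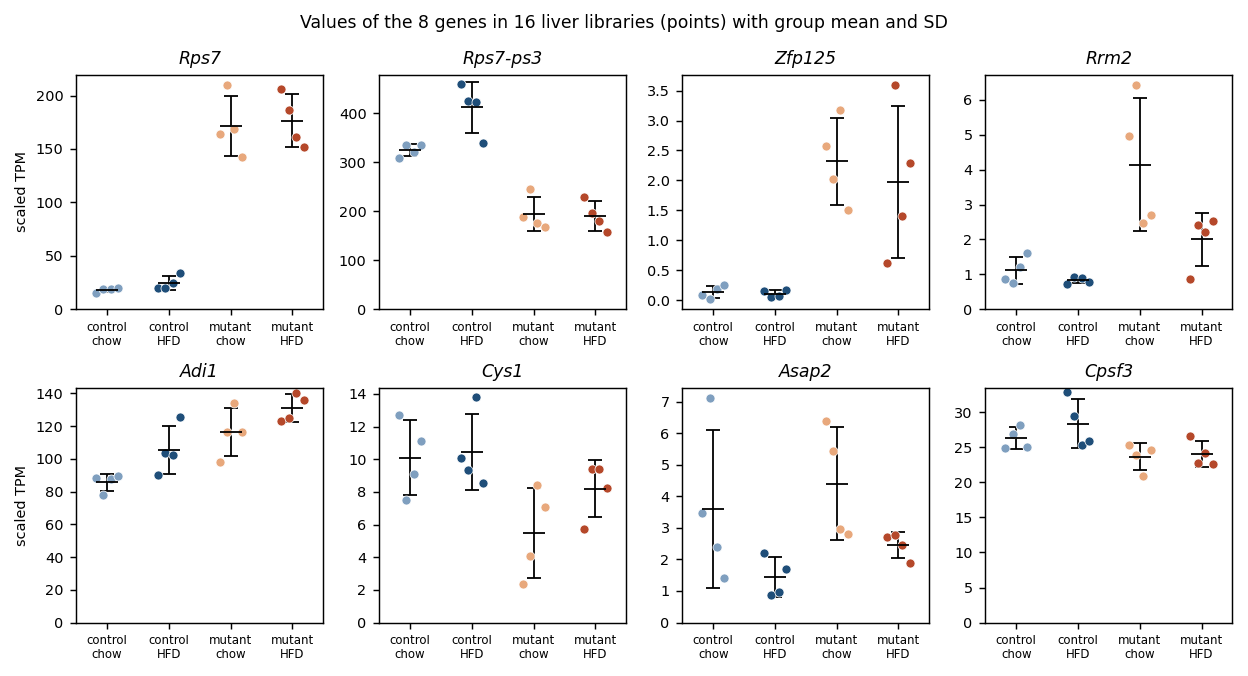
Each panel shows 1 gene in scaled TPM, with a point for each of 4 libraries in 4 groups and bars for the group mean and SD. Over both diets, mutants and controls are apart for Rps7, Rps7-ps3 and Zfp125, which were chosen on genotype, and overlap for Rrm2, Adi1, Cys1, Asap2 and Cpsf3.

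The numbers in the library titles form 4 series, each in 1 diet and each with both genotypes, and what they mark is not stated. Rps7 was higher in mutants in all 4 series, by 2.24 to 3.21 on the log2 scale, Rps7-ps3 was lower (-0.93 to -0.75), and Zfp125 was higher by 0.58 to 1.76, each without overlap within a series. The share of Rps7 was likewise apart in all 4. Each series held only 1 to 3 libraries of a genotype, so lack of overlap within a series can easily arise by chance. The share of all genes without such overlap was not counted. Rrm2 was higher by 0.02 to 1.73, and the 0.02 came from the HFD series with 1 mutant and 3 controls. Adi1 (0.09 to 0.46) and Asap2 (0.30 to 0.71) were higher and Cpsf3 (-0.20 to -0.03) lower in all 4, but not always without overlap. Cys1 was lower in 3 series and higher by 0.07 in the HFD series with 3 mutants and 1 control. With the series as a term in the fit, the mean genotype difference over both diets was 2.93 for Rps7, -0.84 for Rps7-ps3, 1.28 for Zfp125 and 0.84 for Rrm2, against 2.98, -0.93, 1.42 and 0.95 without it.

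The stretch of chromosome 12 around Rps7 was then described gene by gene. Of 66 genes that start within 10 Mb of Rps7, 51 were tested, 7 of them from the list. The median genotype difference of the 51 was -0.01, and 25 were higher in mutants. Of the 44 tested genes that were not on the list, 0 passed after adjustment and 7 (15.9%) at an unadjusted p of 0.05, 5 higher and 2 lower, against 8.98% of all tested genes. On the rest of chromosome 12 the share was 10.6% of 396 genes. It was 1.85% of 54 genes within 10 Mb of Nkx2-1, and 15.4% of 39 genes within 10 Mb of Esr1, which carries the floxed allele in both genotypes. Near Esr1 the median difference was 0.15 and 33 of the 39 genes were higher in mutants, among them all 6 that passed. Near Nkx2-1 the median was 0.04 and 35 of the 54 genes were higher. Of the 7 genes near Rps7 that passed and were not on the list, Rnf144a was tested largely because of its values in mutants. The strain origin of the chromosomes was not measured by these values, so whether a segment differed between the genotypes was not tested.

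**Figure D5:**
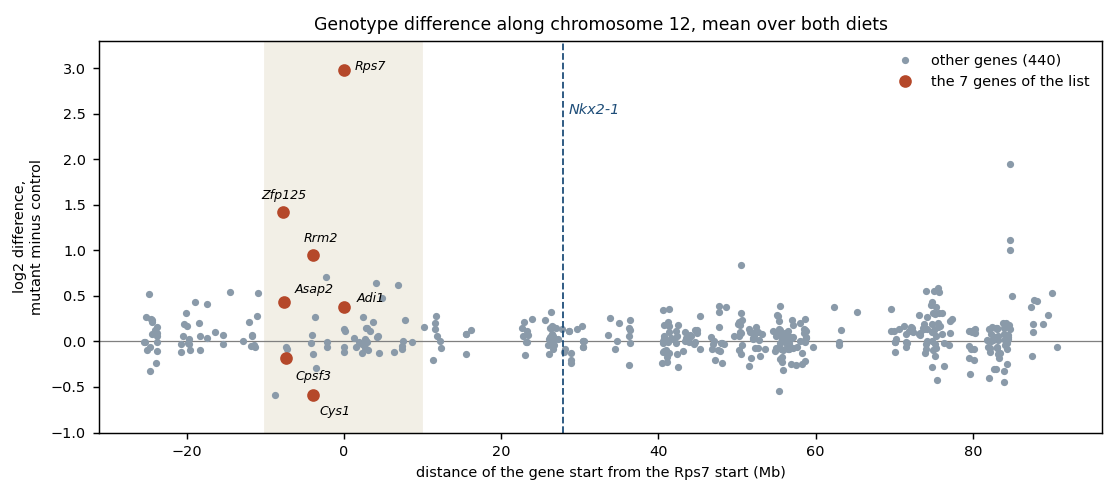
Each point is 1 of the 447 tested genes on chromosome 12, placed by the distance of its start from that of Rps7 (Mb) and by its log2 difference, mutant minus control, averaged over both diets. The 7 genes of the list are red, the shaded band is within 10 Mb, and the dashed line marks Nkx2-1 at 27.9 Mb. Most grey points inside and outside the band lie near 0, and Rps7 stands highest at 2.98.

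None of the neighbours outside the list passed after adjustment, and those with the smallest p-values are given here. Rnf144a, a ubiquitin ligase gene 2.33 Mb from Rps7, had 0.91 ± 0.266 in controls and 2.43 ± 1.79 in mutants (SD, n = 8), a difference of 0.70 (SE 0.217, limma adjusted p = 0.38). Its highest value, 6.13, was in replicate 2 of the mutants on chow, 1 of the 2 libraries with the most neutrophil marker RNA. In controls its highest value was 1.44 on chow and 0.98 on HFD, and most control values lay below 1. Rnf144a thus passed the filter largely through the mutants, so its p-value is given as a description. Ahr, the aryl hydrocarbon receptor that induces detoxification enzymes, lies 6.87 Mb away and had 12 ± 3.97 and 18.9 ± 5.69 (0.62, SE 0.192, limma adjusted p = 0.382). The 2 genes overlapped between genotypes. Id2, an inhibitor of helix-loop-helix transcription factors, was lower in mutants (-0.29, adjusted p = 0.482). Its group means were nearly equal on chow, 168 ± 29 and 169 ± 25.2, and were 228 ± 32.7 in controls and 151 ± 23.1 in mutants on HFD (SD, n = 4). Kidins220 (0.27), Polr1f, a subunit of RNA polymerase I (0.48), Ccdc71l (0.21) and the phosphatase gene Acp1 (-0.13) had adjusted p-values of 0.492 to 0.544. The tested genes outside the list that start nearest to Rps7 were Rnaseh1 (0.0187 Mb), Colec11 (0.0367 Mb) and Trappc12 (0.0598 Mb). They differed by -0.12, 0.14 and -0.06, with limma adjusted p-values of 0.774, 0.616 and 0.802.

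Genes whose pattern was most like that of Rps7 were ranked by Pearson's r on log2(value + 1) over the 16 libraries. Since Rps7 falls into 2 levels by genotype, r mostly ranks genes by how well they separate the genotypes, and it is given as a description. The highest were Zfp125 (0.892), Cdt1, a DNA replication licensing factor (0.819), Gm7086 (0.816), the autophagy gene Atg12 (0.811) and Mettl27 (0.805). Within the 8 controls their r was 0.151, 0.45, 0.0455, 0.616 and -0.375, and within the 8 mutants -0.159, 0.0338, -0.428, 0.134 and -0.00289. Of these 5, Zfp125 alone is on chromosome 12. Gm7086, on chromosome 15, was 0 to 2.85 in controls and 133 to 836 in 7 of 8 mutants, and was listed at 0 in replicate 1 of the mutants on HFD, the library that was also lowest among mutants for Zfp125 and Rrm2. In that library Rps7 was 206, lower only than the 210 of replicate 2 of the mutants on chow.

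The lowest r belonged to Rps7-ps3 (-0.871), Palld (-0.831), Paics, an enzyme of purine synthesis (-0.8), the heat shock gene Hspb1 (-0.767) and the mitochondrial ribosomal protein gene Mrps6 (-0.757). Rps7-ps3 had the reverse relation within the 8 mutants, where r was 0.937, and r was 0.188 within the 8 controls. Values of 1 library share its scaling, and the pair shares sequence. Adi1, the gene of the list nearest to Rps7, ranked as gene 10 from the top (0.778) and had r = 0.818 within controls and -0.0996 within mutants. Rrm2 ranked as gene 33 (0.732), and Asap2 was only weakly related (0.331). Cys1 (-0.589) and Cpsf3 (-0.629) ran opposite to Rps7.

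Diet was tested for the 8 genes, as the choice of genes rested on genotype. In controls Zfp125 reached a value of 1 in 0 of 8 libraries and Rrm2 in 2 of 8, so both were too low there for the test to be informative. Of the other 6 genes, 0 passed the limma test after adjustment, as did 0% of all 12704 genes, with adjusted p-values from 0.317 to 0.964. At an unadjusted p of 0.05, 4 of the 6 passed, against 12.9% of all genes. They were Rps7 (0.39, SE 0.169, adjusted p = 0.347), Rps7-ps3 (0.33, SE 0.141, adjusted p = 0.333) and Adi1 (0.29, SE 0.116, adjusted p = 0.321), all higher on HFD, and Asap2 (-0.80, SE 0.319, adjusted p = 0.317), lower on HFD. Single libraries bore on 2 of these values, as Rps7 differed by 0.22 without replicate 4 of the controls on HFD and Asap2 by -0.48 without replicate 2 of the controls on chow. In mutants 0 of 8 genes passed after adjustment, again as did 0% of all genes, with adjusted p-values from 0.623 to 0.993. At an unadjusted p of 0.05, 2 of the 8 passed in mutants, against 6.86% of all genes. These were Rrm2 (-0.74, SE 0.25, adjusted p = 0.623) and Cys1 (0.60, SE 0.276, adjusted p = 0.723). Without the 2 libraries with the most neutrophil marker RNA, both on chow, they were -0.29 and 0.05. Without replicate 1 of the mutants on chow alone, Cys1 was 0.32. The diet contrasts use libraries that also entered the choice of genes, in controls and in mutants alike. Zfp125 and Rrm2 passed the filter only or largely through the mutants, so their diet results in mutants are given as a description. Each title series lies in 1 diet, so diet and series cannot be told apart.

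For the pair, the sum and the share were tested apart. In controls the sum was 343.0 ± 14.3 on chow and 436.7 ± 45.2 on HFD (SD, n = 4), and the 4 HFD values were all above the 4 chow values. The difference of 0.34 on the log2 scale had p = 0.0286 in a two-sided exact permutation test, the smallest that 4 against 4 libraries can give, and an adjusted p of 0.114 over the 4 tests. In mutants the sum was 365.5 ± 62.6 on chow and 367.4 ± 54.7 on HFD, a difference of 0.01 (exact permutation p = 1, adjusted p = 1). The summed value of the 32 other small subunit genes also had a higher mean on HFD in controls. It was 12860 ± 856.8 on chow and 16627 ± 3841 on HFD in controls, and 13194 ± 968.5 and 12810 ± 2696 in mutants (SD, n = 4). In controls the sums of this list overlapped between diets, from 11965 to 14028 on chow and from 10871 to 18797 on HFD. Whether the pair differed from that list was not tested. The share of Rps7 differed between diets by 0.517 percentage points in controls (exact permutation p = 0.914, adjusted p = 1) and by 1.21 in mutants (exact permutation p = 0.2, adjusted p = 0.4).

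Markers of other cells were checked in the same contrast of genotypes. After adjustment no gene passed in the hepatocyte (9 tested, median -0.05), erythroid (5 tested, 0.14), macrophage and Kupffer cell (10 tested, 0.24), lymphocyte (7 tested, 0.00), bile duct (5 tested, 0.03), stellate and endothelial (10 tested, -0.00) and adipocyte (1 tested, -0.27) lists. The macrophage and Kupffer cell list had a median of 0.65 on chow and of -0.15 on HFD, and its 2 highest sums were in replicates 1 and 2 of the mutants on chow. At an unadjusted p of 0.05, 1 of these genes passed, the hepatocyte marker Serpina1a (0.30, limma adjusted p = 0.394), against 8.98% of all genes. Apart from the neutrophil list, summed marker levels overlapped between the genotypes on each diet.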

How the data were processed

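The authors purified total liver RNA, had libraries prepared (NEBNext Ultra II) and run on a NovaSeq instrument, and assigned reads to the mouse transcriptome (mm10) with kallisto in gene mode before testing genes with sleuth. Versions and the annotation release are not given in the sources used here. The deposited values are a signal per gene, TPM scaled between libraries. This unit was inferred from the values, which are fractional with unequal column totals, so read depth is unknown and no counting interval was computed. Precision rests on the spread between 4 libraries.

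Each library took its group from its labels for genotype and treatment. No label numbers the replicates, so they were numbered in sample order within a group. The members of the list and the 18 gene lists counted beside them were chosen with earlier results of these data known. Genes at 1 or above in at least 4 libraries (12704 of 15544) were kept, and log2(value + 1) was fitted in limma (3.58.1, under R 4.3.3) with 4 group means, a trended empirical Bayes variance and Benjamini-Hochberg adjustment over all tested genes. Differences on this scale understate changes of low genes. A count model foreseen for counts did not apply. The sum and the share of Rps7 in the pair were compared between diets by exact permutation (scipy version 1.17.1). The main limma fit was tested on simulated data, with changes placed only in genes of higher level.

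Transcripts and positions came from GENCODE release M21 (GRCm38), which matched 15536 identifiers and left 8 without a position. RefSeq gives Gm6472 as a synonym of Rps7-ps3. Sequences were aligned with Biopython version 1.88.

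Named genes were all members, the 8 other genes within 10 Mb of Rps7 with the smallest adjusted p, the 5 highest and 5 lowest correlations with Rps7, and in each list at most 3 genes by adjusted p. The result of 1 gene that this rule names is not reported here. Further libraries and genes singled out in the text, among them the 9 genes without overlap, were chosen after their values were seen. Alternatives were a pseudocount of 0.1, no filter, a filter at 5, median-of-ratios size factors, library weights, the title series as a term, only the compared groups, windows of 5 and 20 Mb, a log2 ratio in place of the share, each library left out in turn, and, added after seeing the data, replicates 1 and 2 of the mutants on chow left out together.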

Additional observations from a re-analysis of the deposited data

Results flagged for a closer look

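Each of the 8 genes, the sum of Rps7 and Rps7-ps3, and the share of Rps7 in that sum was looked at for a library far from the other 3 of its group. Of 40 sets of 4 libraries, 2 held one, and chance alone marks about 1 in 20. Adi1 was 77.7 in replicate 2 of the controls on chow, below the other 3 at 87.7 to 89.3. The share of Rps7 was 4.78% in replicate 1 of the controls on chow, below the other 3 at 5.45% to 5.58%. None of the 8 genes was apart between genotypes in opposite directions on the 2 diets.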

How the results depend on the processing

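No paired analysis was possible because the labels carry no replicate numbers. The genotype differences of the 8 genes kept their direction under the alternatives run for them, except Asap2 on chow, which was -0.09 without replicates 1 and 2 of the mutants on chow, an alternative added after seeing the data. Zfp125, Rrm2 and Asap2 fall below the filter at 5 and have no value there.

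Library weights changed the counts most. Of all 12704 genes, 17.8% then passed after adjustment for diet in controls and 8.03% for genotype, against 0% and 0.063% without weights. With weights 2 members passed after adjustment for diet in controls, Rps7-ps3 (0.39, limma adjusted p = 0.0184) and Asap2 (-0.92, limma adjusted p = 0.0438), where 0 passed otherwise, and adjusted p-values over all alternatives ran from 0.0184 to 0.626 and from 0.0438 to 0.635. Weights also gave 0 members at an unadjusted p of 0.05 for diet in mutants (2 as reported). Among the 274 entries of the gene lists they gave 51 adjusted and 115 unadjusted calls (0 and 25 as reported). Of all genes, 28.8% then passed the unadjusted threshold. The cause was not tested. A filter at 5 gave 1 member at an unadjusted p of 0.05 for diet in mutants and 10 unadjusted calls in the lists, with fewer genes tested. Adjusted counts near Rps7 under the alternatives include the members, which were chosen on genotype, so they are not given. Without replicates 1 and 2 of the mutants on chow, 0 members passed the unadjusted threshold for diet in mutants, and Rps7-ps3 differed by 0.14 there.

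With 1 library left out, members past an unadjusted p of 0.05 numbered 1 to 4 for diet in controls and 1 to 3 in mutants, and no member passed after adjustment. Adjusted calls in the lists numbered 0 to 4 (4 without replicate 3 of the mutants on chow). Unadjusted calls there numbered 19 to 81 (81 without replicate 4 of the controls on HFD, 53 without replicate 1 of the mutants on HFD). Small diet differences changed sign. In mutants they ran from -0.04 to 0.15 for Rps7, from -0.12 to 0.09 for Rps7-ps3, from -0.47 to 0.03 for Zfp125, from -0.03 to 0.06 for Cpsf3 and from -0.08 to 0.12 for the summed pair. In controls they ran from -0.08 to 0.01 for Zfp125, from -0.09 to 0.15 for Cys1 and from -0.6 to 1.06 percentage points for the share of Rps7, which was -0.6 without replicate 4 on HFD. The TPM scale keeps no depth, so precision rests on 4 libraries a group.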
